A study of Mus musculus with 13 samples.

Results

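The Hox genes are the 39 mouse genes of the Hoxa, Hoxb, Hoxc and Hoxd complexes, and they were taken as every gene of the deposited count tables whose symbol is Hox, a complex letter and a paralog number, 39 of the 50508 genes listed. Their transcripts were followed in proprioceptive sensory neurons (pSNs), the neurons of the dorsal root ganglia (DRG) that report muscle length and tension. Single tdTomato-positive neurons had been sorted into 13 plates of 96 wells and sequenced with unique molecular identifiers (UMIs), so that each count is 1 transcript molecule captured. The 586 neurons of 1248 wells that the study kept after its own filter were used: 208 adult neurons on 5 plates, 154 postnatal day 12 (p12) neurons on 4, 55 newborn (p0) neurons on 2 and 169 embryonic (e14.5) neurons on 2.

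Adult (older than p56), p12 and p0 neurons carried 1 copy each of PV:Cre, Rx3:Flp and the Ai65 tdTomato reporter (PV:Cre+/-;Rx3:Flp+/-;Ai65+/-), which is on in neurons that have expressed both parvalbumin and Runx3 at some time. The e14.5 neurons instead carried TrkC:tdTomato, a reporter that also marks neurons that are not proprioceptors, and the study treated e14.5 clusters 3 and 4 as such. The intersectional label is also on in some cutaneous afferents that supply Merkel cells. Animals of either sex were pooled, 6 for adult, 4 for p12, 6 for p0 and 2 for e14.5, and which animal gave which plate was not given in the sources used here. The 5 adult plates came from 3 experiments, so some of them share an experiment, and tests that treat them as separate replicates may give p-values that are too small. Adult DRG came from all segmental levels, whereas the levels taken at the younger ages were not stated. A difference between ages and a difference in the ganglia sampled can therefore not be told apart.

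Hox genes encode homeodomain transcription factors that give cells along the head-to-tail axis their regional identity. They lie in order in their complexes, and genes with a higher paralog number are in general used further towards the tail, so that cervical, thoracic and lumbar ganglia and motor pools carry different combinations. In the limb-level spinal cord Hoxc6 and Hoxc10 mark brachial and lumbar motor columns, and Hoxc8 and Hoxc9 mark caudal brachial and thoracic levels. Paralogs are genes with the same number in different complexes, descended from 1 ancestral gene, and they often overlap in expression and function. The study asked whether such regional identity adds to the 5 clusters it found among adult pSNs.

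The homeobox, the stretch coding for the DNA-binding domain, is shown for the 4 genes on which the results below turn. Hoxa10 and Hoxc10 are the paralog pair of the comparison by Hoxc10, and Hoxc8 and Hoxb9 are the genes that differed between adult clusters. Each sequence is 180 bases read 5′ to 3′ on the coding strand of GRCm38 (mm10), within coding exon 2 of 2, and the capitals mark the codons of the tryptophan-to-arginine stretch of the recognition helix that all Hox proteins shown share.
Hoxa10 at chr6:52232554-52232733, minus strand: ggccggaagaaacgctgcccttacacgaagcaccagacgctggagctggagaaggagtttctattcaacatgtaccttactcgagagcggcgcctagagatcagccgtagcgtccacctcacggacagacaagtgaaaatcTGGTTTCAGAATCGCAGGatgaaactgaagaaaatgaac
Hoxc10 at chr15:102970848-102971027, plus strand: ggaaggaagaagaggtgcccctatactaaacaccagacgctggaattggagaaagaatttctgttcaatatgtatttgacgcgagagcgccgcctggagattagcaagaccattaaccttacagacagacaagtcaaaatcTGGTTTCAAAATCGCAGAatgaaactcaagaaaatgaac
Hoxc8 at chr15:102992571-102992750, plus strand: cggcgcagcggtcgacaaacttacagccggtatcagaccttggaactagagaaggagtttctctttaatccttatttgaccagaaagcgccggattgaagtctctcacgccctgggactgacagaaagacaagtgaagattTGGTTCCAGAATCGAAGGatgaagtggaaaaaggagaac
Hoxb9 at chr11:96274659-96274838, plus strand: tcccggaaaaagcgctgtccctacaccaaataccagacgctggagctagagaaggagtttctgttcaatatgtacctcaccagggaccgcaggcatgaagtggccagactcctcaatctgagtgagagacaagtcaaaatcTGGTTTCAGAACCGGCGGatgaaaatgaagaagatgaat
The homeoboxes of Hoxa10 and Hoxc10 shared 145 of 180 bases (80.56%), which was also the median of the 42 pairs with the same paralog number. The 104 pairs 1 group apart had a median of 70.56%, and the 595 pairs 2 or more groups apart had 59.44%. The pair of Hoxc8 and Hoxb9 shared 63.33%. The longest run that the whole Hoxa10 and Hoxc10 transcripts had in common was 17 bases, shorter than the 58-base read used for counting, so no read of that length within them could match both exactly.

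Most of the sorted neurons carried defining markers of proprioceptors. Parvalbumin (Pvalb) had a UMI in 100% of adult, p12 and p0 neurons and 89.3% at e14.5, the neurotrophin receptor Ntrk3 in 94.7% to 100%, and the transcription factor Etv1 in 89.3% to 100%. Runx3, which drives part of the label, had a UMI in 72.6% of adult, 40.3% of p12, 80% of p0 and 63.3% of e14.5 neurons, and Whrn, a proprioceptor gene, in 87.0%, 69.5%, 58.2% and 1.18%. Median depth per plate was 28270 to 59081 UMIs per neuron in the adult, 18852 to 61465 at p12, 36407 to 42630 at p0 and 8930 to 13195 at e14.5. Shares of neurons with a UMI move with depth, and the main ones are therefore given also after thinning each neuron to 7000 UMIs, which left out 20 neurons (2 at p12 and 18 at e14.5). The summed level of 7 glial markers was 214 to 851 CPM (counts per 1000000 UMIs of a neuron) per plate at the postnatal ages against 11.3 to 22.6 at e14.5. The p12 plates fell into 2 pairs. Replicates 1 and 2 held 12 and 13 kept neurons with median depths of 61465 and 50417 UMIs, and replicates 3 and 4 held 67 and 62 neurons with 26411 and 18852. Cutaneous markers summed to 201 and 143 CPM on the first pair against 52.4 and 38.3 on the second, glial markers to 602 and 487 against 214 and 293, and all Hox messages to 290 and 264 against 182 and 173. Fits of single genes with p12 plates were therefore also run with each pair alone, a choice made after seeing the data. The number of Hox genes per neuron and the Hox share at p12 are given by plate instead. The part of depth and of these markers in the p12 values was not tested.

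Of the 39 Hox genes, 32 had at least 1 UMI in a kept neuron, and between 17 and 28 did so on any 1 plate. The 7 genes that were at 0 in all 586 neurons were Hoxa11, Hoxc12, Hoxd12, Hoxa13, Hoxb13, Hoxc13 and Hoxd13, genes of the groups used mainly at sacral and tail levels and in the distal limb, and 0 of 586 allows up to 0.512% of neurons with a captured UMI, which sets no limit on message that was not captured. Another 9 genes were found in 1 to 10 neurons, among them the group 11 genes Hoxc11 and Hoxd11 with 1 neuron each and the hindbrain-level genes Hoxb1 (3 neurons) and Hoxa2 (5). Transcripts came mainly from the middle of the complexes, and 10 genes were found in more than 100 neurons each. Hox messages were sparse: 5045 UMIs in all, at most 15 UMIs of 1 gene in 1 neuron, and none at all in 23 neurons.

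Hoxa7, a trunk-level gene (chr6:52215623-52218573, minus strand), was the most widely found, in 396 neurons with 1280 UMIs. It was present in 77.9% ± 18.4 of adult neurons (SD over n = 5 plates), 83.7% ± 15.0 at p12 (n = 4), 81.0% ± 8.55 at p0 (n = 2) and 47.9% ± 7.62 at e14.5 (n = 2). The e14.5 libraries were also the shallowest, and after thinning the same shares were 32.7%, 37.6%, 29.6% and 41.4%. The part of depth in the lower e14.5 share was not tested. Hoxc8 (chr15:102990539-102994275, plus strand) was found in 52.6% ± 8.46, 51.1% ± 24.6, 49.9% ± 11.6 and 27.4% ± 4.84 of neurons in the same order. Its share varied widely between p12 plates, and after thinning it was 17.1%, 23.2%, 18.5% and 21.6%.

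The thoracic and lumbar genes Hoxa9, Hoxc9, Hoxa10 and Hoxc10 had another profile, with the highest mean shares at p0. Hoxc9 (chr15:102977032-102984444, plus strand) was found in 49.8% ± 12.6 of adult, 31.2% ± 14.8 of p12, 81.5% ± 3.33 of p0 and 31.2% ± 2.58 of e14.5 neurons. Hoxc10 (chr15:102966796-102971898, plus strand) was found in 40.9% ± 8.78, 23.5% ± 13, 67.2% ± 0.76 and 18.4% ± 0.411. After thinning the mean shares were 10.2%, 4.83%, 22.6% and 12.6% for Hoxc10 and 11.5%, 4.80%, 26.1% and 24.2% for Hoxc9, so that Hoxc9 at e14.5 came near p0. Hoxa10 (chr6:52231197-52240854, minus strand) was found in 37.8% ± 8.79, 22.7% ± 14.1, 67.9% ± 13.5 and 18.6% ± 3.80, and Hoxa9 (chr6:52223097-52227370, minus strand) in 50.4% ± 8.43, 33.5% ± 19.0, 72.5% ± 2.38 and 30.8% ± 7.40. Their thinned shares were 11.6%, 7.67%, 15.9% and 10.6% for Hoxa10 and 19.0%, 15.0%, 27.0% and 23.2% for Hoxa9. Hoxb7, another trunk gene, was found in 24.1% to 60.8% of neurons and the brachial-level gene Hoxc6 in 13.1% to 34.9%, both lowest at e14.5. That order was lost after thinning, when Hoxb7 was found in 7.52% of adult, 10.1% of p12, 11.1% of p0 and 19.2% of e14.5 neurons and Hoxc6 in 5.82%, 9.87%, 8.53% and 8.76%. Hoxd8 differed from its paralog Hoxc8, with 35.6% ± 9.08 of adult and 32.2% ± 22.9 of p12 neurons but 2.08% ± 2.95 at p0 and 3.87% ± 3.96 at e14.5, and after thinning 7.86%, 3.28%, 0% and 1.33%.

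By paralog group, a gene of group 7 was present in 84.2% of adult, 86.8% of p12, 86.8% of p0 and 60.9% of e14.5 neurons. Group 9 reached 71.8%, 49.6%, 96.3% and 55.3%, and group 10 reached 54.7%, 28.1%, 88.4% and 30.2%. After thinning, group 7 was found in 38.2%, 46.0%, 37.4% and 52.9%, with e14.5 now the highest, group 9 in 32.9%, 23.3%, 47.8% and 44.3%, and group 10 in 20.5%, 12.9%, 33.7% and 22.5%. Groups 4 and 5 were found in 15.7% to 33.3% of neurons, group 1 in 2.00% to 7.06% and group 11 in 0% to 0.532%. By complex, Hoxa genes gave 44.3% to 47.7% of Hox UMIs at every age, Hoxc genes 32.7% to 37.4%, Hoxb genes 13.8% to 14.6% and Hoxd genes 1.85% to 8.75%. By the same measure group 7 gave 28.0% to 37.9% of Hox UMIs, group 9 gave 19.9% to 30.8% and group 10 gave 8.09% to 23.9%.

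**Figure D1:**
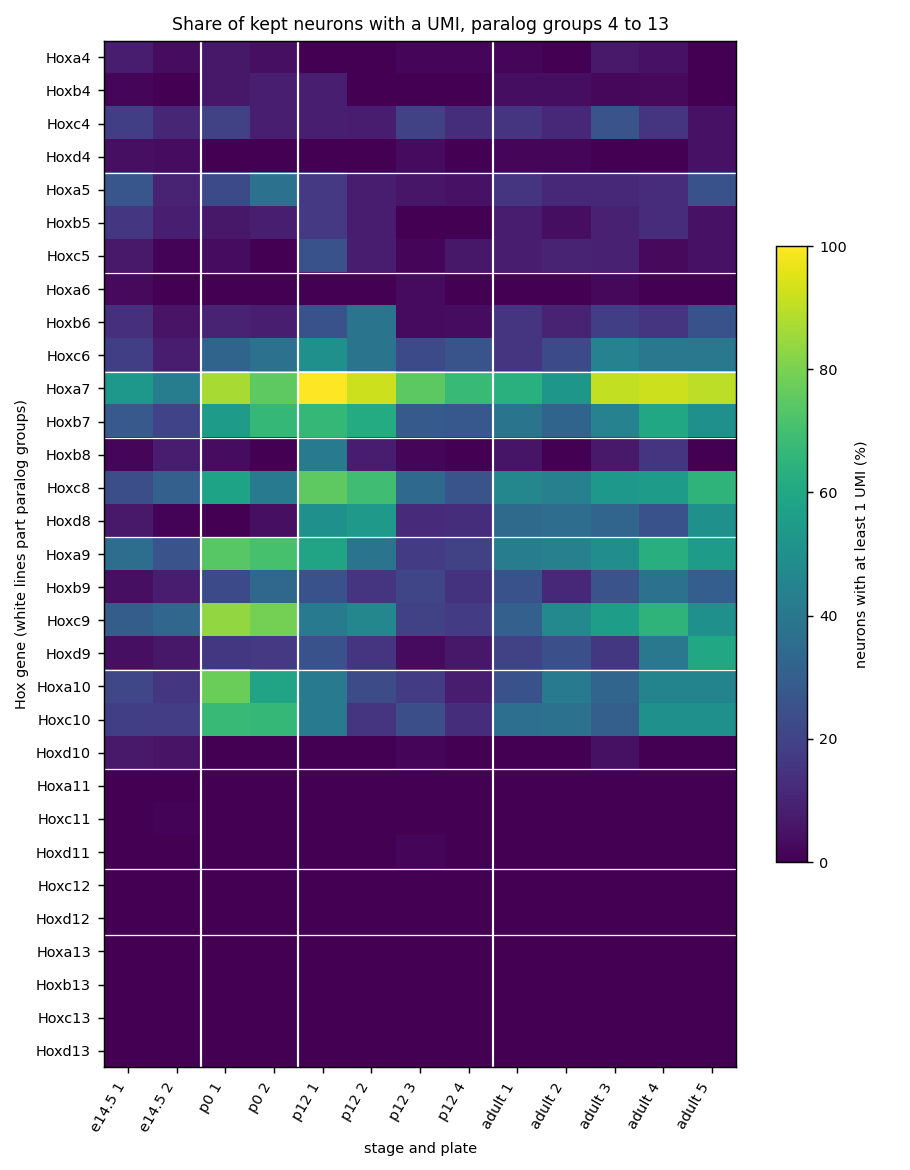
Percent of kept neurons with at least 1 UMI of each Hox gene of paralog groups 4 to 13 (rows, ordered by group) on each of the 13 plates (columns, ordered by age), on a colour scale from 0 to 100%. The middle groups fill the map: Hoxa7 is found on every plate, Hoxc9 and Hoxc10 are brightest on the p0 plates, and groups 12 and 13 are empty.

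The highest paralog group with a UMI gives a rough reading of how caudal a neuron's Hox profile reaches. It is too low where a message was missed and too high where a read was assigned to the wrong gene. Group 10 was the highest in 54.7% ± 10.4 of adult neurons (n = 5 plates), with 42.3%, 54.7%, 46.5%, 65% and 65% on the single plates. At p12 the share was 27.7% ± 10.3 (n = 4), with 41.7%, 23.1%, 28.4% and 17.7%. The p0 plates had 93.5% and 83.3%, and the e14.5 plates had 30.7% and 28.7%. Every p12 plate was below every adult plate, and both p0 plates were above all others. At equal depth both separations from the adult plates were lost, while both p0 plates stayed above all p12 and e14.5 plates. After thinning to 7000 UMIs the plates ran from 4.65% to 30.2% in the adult, 7.69% to 25% at p12, 25.8% to 41.7% at p0 and 21.3% to 22.5% at e14.5.

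A highest group of 9 was seen in 22.1% of adult, 25.0% of p12, 11.6% of p0 and 35.0% of e14.5 neurons. Group 8 was the highest in 13.6%, 25.1%, 0% and 6.26%, and groups 6 to 7 in 5.77%, 18.7%, 0% and 17.0%. Thus at full depth all 55 p0 neurons held a message of group 9 or 10, whereas the profiles of the other ages ended at several levels. Neurons whose highest message was of groups 1 to 5 made up 0.762% to 5.72% at the other 3 ages, and neurons with no Hox message at all another 1.96% to 5.72%. Depth limits these shares: after thinning, group 10 was the highest in 20.5% of adult, 12.5% of p12, 33.7% of p0 and 21.9% of e14.5 neurons on average. The thinned p0 profiles also ended at several levels, with groups 6 to 7 the highest in 9.95%, group 8 in 5.31% and no Hox message in 15.5%.

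**Figure D2:**
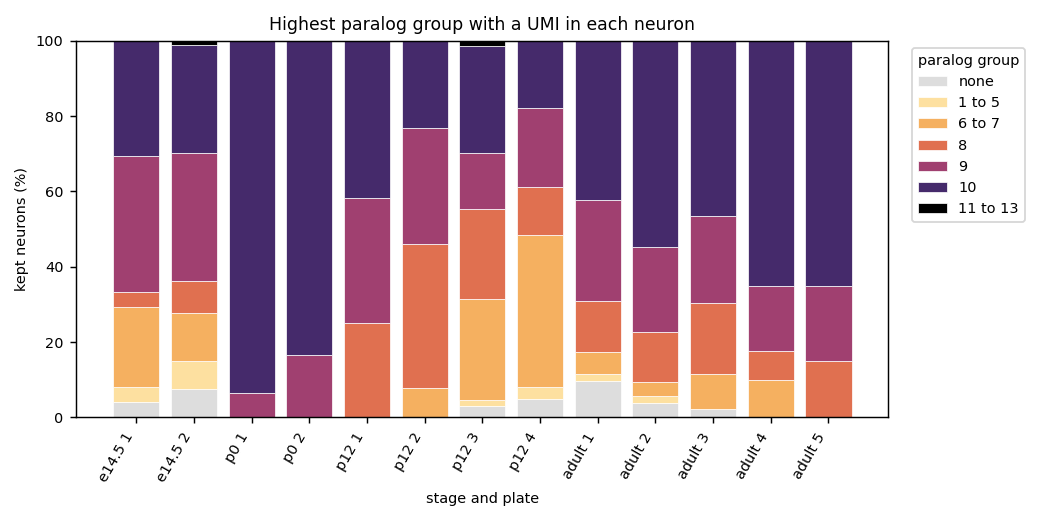
Share of kept neurons (percent, stacked to 100) by the highest Hox paralog group with at least 1 UMI, 1 bar per plate in order of age. On the p0 plates groups 9 and 10 fill the whole bar, with group 10 at 93.5% and 83.3%, while group 10 takes 17.7% to 41.7% of the p12 bars.

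The number of different Hox genes per neuron did not differ between adjacent ages beyond what the number of plates can show. At 7000 UMIs each, adult neurons held 1.54 ± 0.265 Hox genes (n = 5), p12 neurons 1.32 ± 0.408 (n = 4), p0 neurons 1.75 ± 0.122 (n = 2) and e14.5 neurons 2.29 ± 0.109 (n = 2). The differences were -0.218 (p12 minus adult), 0.428 (p0 minus p12) and 0.537 (e14.5 minus p0), with two-sided exact permutation p = 0.381, 0.4 and 0.333, all 0.4 after Benjamini-Hochberg adjustment over the 3. The smallest p that each comparison allows is 0.0159, 0.133 and 0.333, so the last 2 could not pass. All Hox messages together made up 261 ± 48.4, 227 ± 58.4, 298 ± 13.4 and 418 ± 27.8 CPM, and their differences of -34.1, 70.7 and 120 CPM gave exact permutation p = 0.429, 0.267 and 0.333, all 0.429 when adjusted. Both p12 minus adult values moved with single plates. Without p12 replicate 1 they were -0.416 genes (exact permutation p = 0.0357, the smallest that 5 against 3 plates allow, and 0.107 adjusted) and -55.1 CPM, and without adult replicate 5 they were -0.104 genes and -15.3 CPM. By plate, p12 replicates 1 to 4 held 1.92, 1.23, 1.17 and 0.984 genes, and only replicate 1 was above the adult mean of 1.54. Their Hox share was 290, 264, 182 and 173 CPM, with replicates 1 and 2 above the adult mean of 261 CPM and replicates 3 and 4 below it.

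Levels of single genes were compared between adjacent ages on UMIs summed per plate, with edgeR's quasi-likelihood test over the 11939 genes that passed its count filter, of which 16 were Hox genes. A gene was called at a Benjamini-Hochberg adjusted p under 0.05 over all genes tested. The posterior genes Hoxc9, Hoxc10 and Hoxd9 were lower at p12 than in the adult, and Hoxc9 and Hoxc10 were higher again at p0 than at p12. Hoxa10 and the more anterior Hoxa5 were also higher at p0 than at p12, Hoxd8 was lower, and Hoxb5 was higher at e14.5 than at p0.

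Between p12 and adult, 3 of 16 Hox genes were called, all lower at p12, where 14.1% of all genes tested were called. Hoxd9, a gene of lumbar levels, had mean levels of 6.45, 11.6, 4.40, 8.45 and 20.5 CPM on the adult plates and 4.20, 2.81, 0.809 and 2.66 CPM on the p12 plates. The groups did not overlap, though how many of all genes tested do so was not counted. The difference was -1.95 on the log2 scale (SE 0.51, edgeR adjusted p = 0.0208). It passed in 17 of 19 other settings and was lost without p12 replicate 3 (adjusted p = 0.099) and with p12 replicates 1 and 2 alone (-1.70, adjusted p = 0.194). Hoxc10 had 18.6, 20.0, 12.7, 15.5 and 32.7 CPM on adult plates and 7.07, 4.26, 11.3 and 8.15 CPM on p12 plates. Here too every p12 plate was lower, by -1.06 (SE 0.33, edgeR adjusted p = 0.0454), but the call held in only 4 of 20 other settings and was lost with either pair of p12 plates alone (-1.52 and -0.80, edgeR adjusted p = 0.101 and 0.142). Hoxc9 differed by -0.98 (SE 0.28, edgeR adjusted p = 0.0302), held in 10 of 20 settings, and its adult replicate 1 at 11.5 CPM lay within the p12 range of 7.58 to 13.8 CPM. With p12 replicates 1 and 2 alone 0 of 13 Hox genes were called by edgeR, and with replicates 3 and 4 alone 6 of 15 were. The share of all genes called in either of these fits is not given here, so the counts cannot be set against it. The median of the 16 Hox genes was -0.47 and that of all genes -0.04. Of the other marker lists, 1 of 3 cutaneous genes (Ret, -1.34 on the log2 scale) and 1 of 5 glial genes (Mbp, higher at p12, edgeR adjusted p = 0.0307) were called in the same comparison, and their part in the Hox values was not tested.

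Between p0 and p12, 5 of 16 Hox genes were called, 4 higher and 1 lower at p0, against 18.1% of all genes tested. Hoxc10 stood at 42.3 and 50.9 CPM on the p0 plates, above every p12 plate, a log2 difference of 2.20 (SE 0.38, edgeR adjusted p = 0.00111). Hoxc9 stood at 44.5 and 39.8 CPM, with a difference of 1.84 (SE 0.33, edgeR adjusted p = 0.0013). These were the calls that stood in all 20 other settings, either pair of p12 plates alone included. Hoxa10 had 32.9 and 22.9 CPM at p0 against 11.2, 13.2, 7.98 and 4.52 CPM at p12 (log2 difference 1.59, SE 0.47, edgeR adjusted p = 0.0295), which passed in 13 of 19 and was lost with p12 replicates 1 and 2 alone (1.05, adjusted p = 0.193). For each of these 3 genes, and for Hoxd8 and Hoxa5 below, the p0 and p12 plates did not overlap. How many of all genes tested do so was not counted. Hoxa9, Hoxb9 and Hoxd9, the other tested genes of group 9, were not called here.

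Hoxd8 moved the other way. Its levels were 10.5, 17.3, 5.73 and 8.31 CPM on the p12 plates and 0 and 0.735 CPM on the p0 plates, a log2 difference of -4.14 (SE 1.01, edgeR adjusted p = 0.0105). The call passed in 17 of 19 settings and was lost with DESeq2 and without p0 replicate 1. Since 1 p0 plate was at 0, the size of that value depends on how the fit treats a 0. Its paralog Hoxc8 had -1.06 in the same comparison and was not called (edgeR adjusted p = 0.0764), with 53.4, 67.7, 21.9 and 18.0 CPM on the p12 plates. Hoxa5, a gene of cervical and brachial levels, had 5.85 and 11.1 CPM at p0 against 4.12, 1.64, 1.85 and 1.98 CPM at p12 (log2 difference 1.71, SE 0.57, edgeR adjusted p = 0.0498), and only 3 of 19 other settings kept that call. Of the marker lists, 2 of 3 cutaneous genes (Necab2, 1.94, and Ret, -3.46) and 1 of 5 glial genes (Fabp7, 1.39) were called between p0 and p12, and their part in the Hox values was not tested.

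Between e14.5 and p0, 1 of 16 Hox genes was called against 27.8% of all genes tested, although the median of the 16 was 0.71 and that of all genes -0.01. The gene was Hoxb5, used from the hindbrain to brachial levels, with 17.5 and 10.7 CPM at e14.5 and 1.23 and 1.31 CPM at p0 (log2 difference 2.98, SE 0.86, edgeR adjusted p = 0.0196). It passed in 12 of 18 other settings and was lost with DESeq2, without e14.5 clusters 3 and 4, and without any 1 plate of either age. In the same comparison the glial marker Apoe had -5.81 (edgeR adjusted p = 0.000237), and the transgene differed between these ages. The part of either in the Hox values was not tested.

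**Figure D3:**
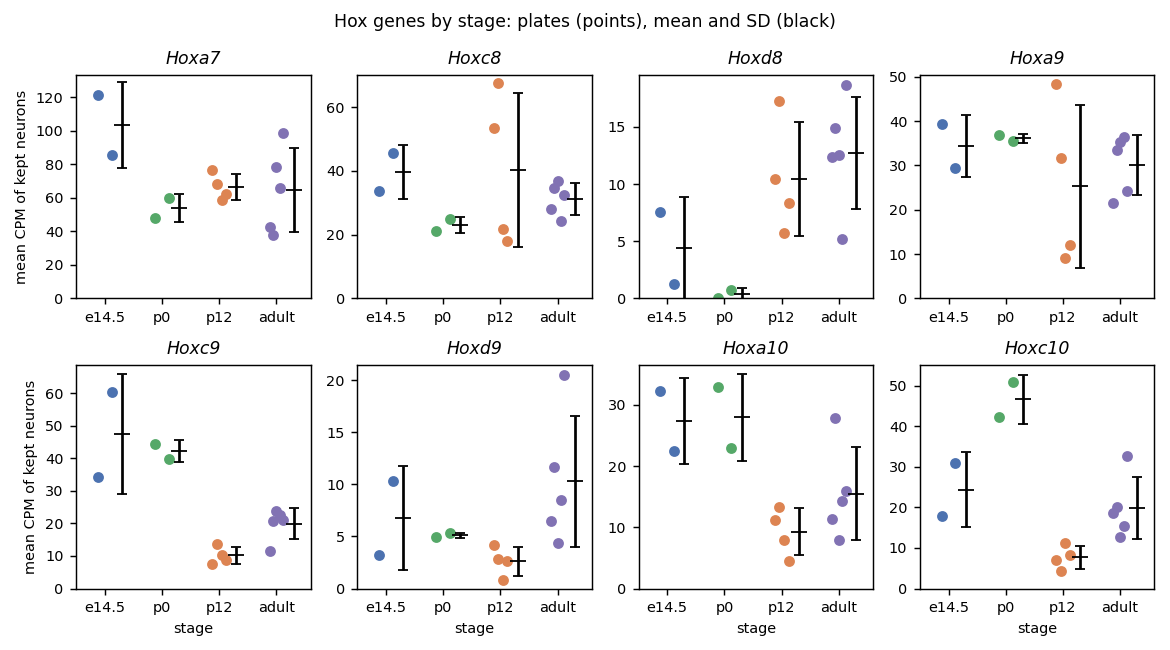
Mean CPM per plate (points, coloured by age) of 8 Hox genes at e14.5, p0, p12 and adult, with the mean and SD over plates in black. Hoxc9, Hoxc10 and Hoxa10 reach higher at p0 than at any p12 plate, while Hoxd8 is near 0 on both p0 plates.

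Among the 5 adult clusters, Hox genes were compared on UMIs summed per plate and cluster, with 7370 genes tested, 9 of them Hox genes. The study made these clusters from the expression of the same neurons. The p-values therefore describe how far plates repeat a difference, and do not come from groups set independently of these data. The called genes differed by cluster: Hoxc8 was higher in cluster 1 than in the other clusters, and Hoxb9 was higher in cluster 5. For any difference among clusters 2 of 9 Hox genes were called, where 9.67% of all genes tested were. Clusters 2 and 4 were made up only of neurons on adult replicates 1 and 2, and cluster 3 almost only of neurons on replicates 2 to 5, so that these clusters and their plates cannot be fully told apart.

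Hoxc8, which in motor neurons sets caudal brachial identity, had 47.7, 72, 69.0, 56.6 and 53.9 CPM in cluster 1 on the 5 adult plates. In cluster 5, the cluster also found on every plate, it had 19.5, 15.2, 9.67, 14.3 and 19.2 CPM. These plates did not overlap, and how many of all genes do so was not counted. Cluster 3 (0, 38.0, 10.6 and 31.3 CPM), cluster 2 (11.7 and 38.3 CPM) and cluster 4 (21.9 and 15.1 CPM) also lay below cluster 1. A UMI of Hoxc8 was found in 40 of 51 cluster 1 neurons (exact 95% interval 64.7% to 88.7%) and in 11 of 31 cluster 5 neurons. The contrast of cluster 1 with the mean of the others (edgeR adjusted p = 0.00201, 5.69% of all genes called) passed in each of 13 other settings, while the test for any difference (edgeR adjusted p = 0.00728) rose to 0.0651 without adult replicate 1. Cluster 1 neurons were also the deepest, with a median of 59922 UMIs against 20138 to 57694. Of 4 cutaneous afferent markers 2 passed the filter, Maf and Ret, and both were higher in cluster 1 (log2 2.53 and 1.33). The 4 summed to 226 to 517 CPM per plate there and 40.3 to 261 CPM in the other clusters, with Mafa at 0 in every cluster, and their part in the Hoxc8 value was not tested.

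Hoxb9, a thoracic-level gene (chr11:96271330-96276595, plus strand), had 34.7, 6.83, 11.6, 69.5 and 35.9 CPM in cluster 5 against 0 to 4.64 CPM per plate in cluster 1. It was found in 17 of 31 cluster 5 neurons, and on adult replicate 4 in all 7. Elsewhere it was found in 10 of 51 neurons of cluster 1, 6 of 41 of cluster 3, 5 of 28 of cluster 4 and 0 of 15 of cluster 2, which limits neurons with a captured UMI to 20% there and sets no limit on message that was not captured. The contrast of cluster 5 with the mean of the others (edgeR adjusted p = 0.00187, 4.03% of all genes called) passed in 11 of 12 other settings and was lost in replicates 1 and 2 alone (adjusted p = 0.168). The test for any difference (edgeR adjusted p = 0.00541) passed in 10 of 12 and was lost without adult replicate 4. Dcn, the 1 of 5 fibroblast markers that passed the filter, was also higher in cluster 5 (log2 5.29, edgeR adjusted p = 2.38e-06). The 5 summed to 47.8 to 107 CPM per plate in cluster 5 and 0 to 51.2 CPM in the others, with Pdgfra at 0 in every cluster, and their part in the Hoxb9 value was not tested.

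The gene used to mark lumbar levels, Hoxc10, was not called between clusters (edgeR adjusted p for any difference 0.323). It was found in 24 of 51, 10 of 15, 17 of 41, 9 of 28 and 11 of 31 neurons of clusters 1 to 5, so each cluster held neurons with and without it. A gene of group 10 was the highest in 52.9%, 73.3%, 53.7%, 42.9% and 61.3% of the neurons of clusters 1 to 5. Hoxa7 was not called either (edgeR adjusted p = 0.164). For clusters 2, 3 and 4 against the others no Hox gene was called, where 0.0271%, 0.095% and 2.73% of all genes were, with 0, 2 and 0 of the 9 at an unadjusted edgeR p under 0.05 and 0 called by DESeq2 in each. Between adult replicates 1 and 2 and adult replicates 3 to 5, Hoxa7 was lower in the first set (log2 -0.68, SE 0.23, edgeR adjusted p = 0.0457), 1 of 11 Hox genes called where 16.6% of all genes were, and only 3 of 8 other settings kept that call.

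**Figure D4:**
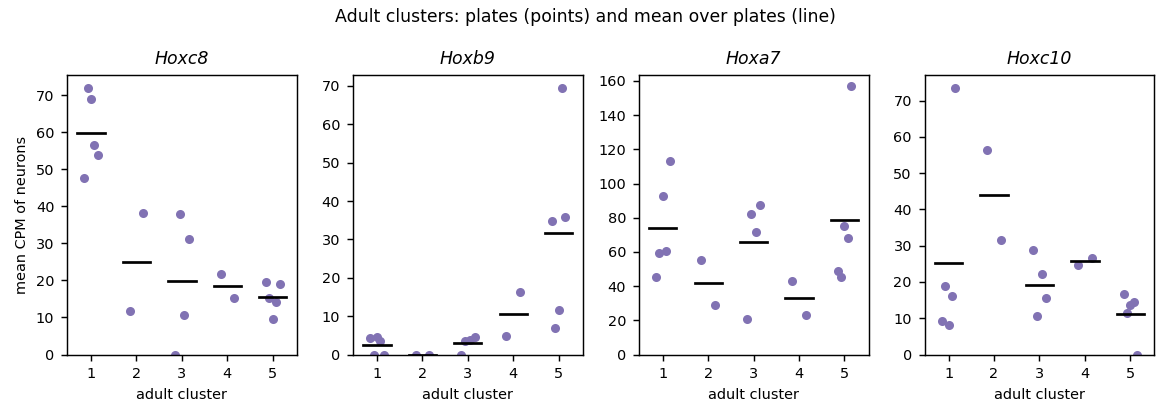
Mean CPM of Hoxc8, Hoxb9, Hoxa7 and Hoxc10 in adult clusters 1 to 5 (points are plates with at least 2 neurons of the cluster, lines are means over plates). Hoxc8 lies between 47.7 and 72 CPM in cluster 1 and Hoxb9 between 6.83 and 69.5 CPM in cluster 5, while the Hoxc10 points of the clusters overlap.

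To see what goes with a lumbar-type Hox profile, neurons with at least 1 Hoxc10 UMI (181) were set against those without (405), as sums of each plate compared within the plate (82 and 126 in the adult, 31 and 123 at p12, 37 and 18 at p0, 31 and 138 at e14.5). The fit tested 10480 genes, among them 12 Hox genes other than Hoxc10. Hoxa10, the paralog of Hoxc10 on another chromosome, was higher in Hoxc10-positive neurons over the mean of the 4 ages, and it was the only one of the 12 called, where 0.0191% of all genes were. In the adult and at p12 taken alone, Hoxa10 and the neighbouring Hoxa9 were both higher.

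Hoxa10 was found in 106 of 181 neurons with Hoxc10 (58.6%) and in 64 of 405 without (15.8%). On the adult plates its level was 24.7, 43.4, 18.2, 22.0 and 22.6 CPM with Hoxc10 and 7.39, 25.1, 5.49, 7.49 and 12.7 CPM without. On the p12 plates it was 27.6, 73.2, 21.7 and 11 CPM with and 0, 1.89, 2.15 and 3.43 CPM without. On the p0 plates it was 39.0 and 28.5 CPM with and 28.6 and 20.8 CPM without, and on the e14.5 plates 69.2 and 60.3 CPM with and 18.9 and 17.1 CPM without. The level was higher with Hoxc10 on 13 of 13 plates. The mean difference over ages was 1.76 on the log2 scale (SE 0.22, edgeR adjusted p = 8.91e-05), and it passed in 21 of 21 other settings (1.51 to 2.22).

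Within single ages the difference of Hoxa10 was 1.29 in the adult (SE 0.28, edgeR adjusted p = 0.0389, called in 14 of 21 other settings) and 3.45 at p12 (SE 0.51, edgeR adjusted p = 0.000966, called in 19 of 21, lost without p12 replicate 2 at an adjusted p of 0.0555 and with p12 replicates 3 and 4 alone at 0.397). It was 0.48 at p0 (SE 0.45) and 1.81 at e14.5 (SE 0.48), neither of them called (edgeR adjusted p = 1 and 0.712). At p0 Hoxa10 was found in 26 of 37 neurons with Hoxc10 and 12 of 18 without, so there most neurons of either kind had it. That the difference itself varied between ages was not called (edgeR adjusted p = 0.470), although among neurons of at least 20000 UMIs it was (0.0229).

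Hoxa9 was found in 54 of 82 adult neurons with Hoxc10 and 48 of 126 without, and in 17 of 31 against 19 of 123 at p12. Its differences were 0.97 in the adult (SE 0.19, edgeR adjusted p = 0.0136, where 0.229% of all genes were called) and 1.61 at p12 (SE 0.29, edgeR adjusted p = 0.0187, where 0.0763% were). They passed in 16 and 16 of 22 other settings, and the p12 value was lost with either pair of p12 plates alone (1.69 and 1.44, edgeR adjusted p = 0.244 and 0.555). At p0 and e14.5 the values were -0.47 and -0.58 (edgeR adjusted p = 1 for both), and the variation between ages was not called (edgeR adjusted p = 0.0781). Hoxa9 thus went with Hoxc10 in the adult and at p12, and no difference was resolved at the earlier ages.

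Other Hox genes did not pass. Hoxd9 had a mean difference of 2.31 (SE 0.46, edgeR adjusted p = 0.0964) and was higher with Hoxc10 on 12 of 13 plates, in 58 of 181 neurons against 29 of 405. The trunk gene Hoxa7 had -0.66 (SE 0.16, edgeR adjusted p = 0.327), and was lower with Hoxc10 on 4 of 4 p12 and 2 of 2 e14.5 plates but higher on 2 of 5 adult and 1 of 2 p0 plates. No Hox gene was called at p0 or e14.5 alone (0.0382% and 0.00954% of all genes), nor for the variation between ages (0.0668%), with 0, 3 and 5 of the 12 at an unadjusted edgeR p under 0.05 and 0 called by DESeq2 in each. Neurons with Hoxc10 were deeper in the adult (median 45921 against 33338 UMIs) and at p12 (35016 against 23267), and not at p0 (40414 against 42191) or e14.5 (10585 against 10631). Among neurons of at least 20000 UMIs Hoxa10 had a mean difference of 2.09 (edgeR adjusted p = 6.94e-05). Glial markers summed were higher with Hoxc10 on 0 of 5 adult, 2 of 4 p12, 2 of 2 p0 and 1 of 2 e14.5 plates. Cutaneous markers were higher with it on 3 of 5, 0 of 4, 2 of 2 and 0 of 2 plates in the same order, and at p12 they summed to 9.20 to 196 CPM with Hoxc10 and 42.7 to 204 CPM without. Fibroblast markers were higher with it on 2 of 5, 4 of 4, 0 of 2 and 1 of 2 plates, and at p12 they summed to 3.05 to 55.9 CPM with Hoxc10 and 0.400 to 15.6 CPM without. The part of these markers in the Hox values was not tested.

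**Figure D5:**
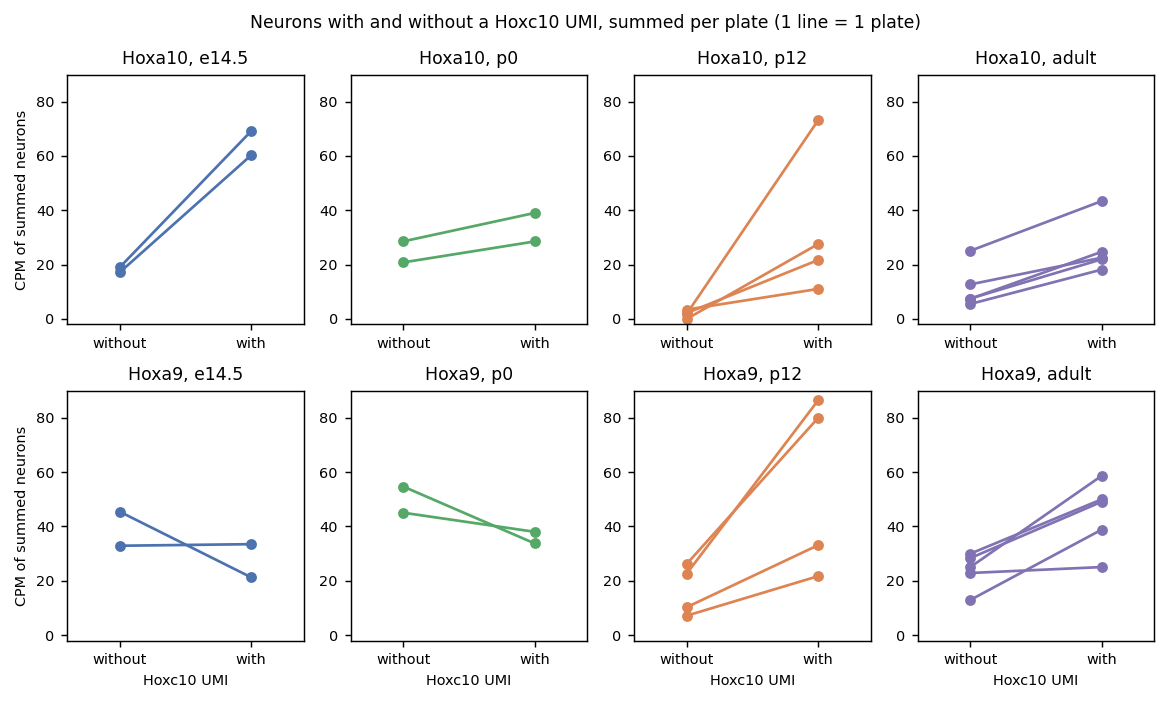
Level of Hoxa10 (top) and Hoxa9 (bottom) in CPM in the summed neurons of each plate without and with a Hoxc10 UMI, lines joining the sums of 1 plate, at e14.5, p0, p12 and adult. For Hoxa10 each of the 13 lines goes up, while for Hoxa9 the lines go up on 10 of 13 plates.

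Genes outside the complexes that differed by Hoxc10 were few. Over the mean of ages only Ankfy1 was called beside Hoxa10 (log2 -0.42, edgeR adjusted p = 0.0212). In the adult, 24 genes were called, 2 of them Hoxa10 and Hoxa9. Timeless (1.93), Cryba2 (1.11) and the neurofilament genes Nefh (0.32) and Nefm (0.28) were higher with Hoxc10, and Rarres1 (-3.35), Cidea (-2.41), Crip2 (-2.05), Lxn (-1.16) and Timp2 (-1.15) were lower. At p12, 8 genes were called, again with Hoxa10 and Hoxa9. Of the others, Ntm (1.05) and Nefm (0.31) were higher and Spp1, which encodes a secreted protein (-1.24), Ldhb (-0.43) and Ndufb11 (-0.37) were lower. At p0, 4 were called, among them the neuropeptide gene Cartpt (5.75) and Tmem69 (4.25) higher and S100a13 (-1.54) lower. The first rests on UMIs in 5 of 37 neurons with Hoxc10 and 1 of 18 without, and the second on 4 of 37 and 2 of 18, with 1 plate at 0 without Hoxc10 for both, so their sizes depend on how the fit treats a 0. At e14.5 Ankfy1 (-1.32) was the only one.

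In the same single neurons, Hox genes close in number were found together more than genes far apart, most plainly in the adult and at p12 at full depth. Correlations are Pearson's r of log10(CPM + 1) over the neurons of a plate, for pairs found in at least 5 neurons there, averaged over pairs and plates. Neurons of 1 plate share their library and differ in depth, so the values are a description. In the adult the mean correlation was 0.178 over the 14 pairs of the same paralog group, 0.107 over 39 pairs 1 group apart, 0.043 over 28 pairs 2 apart and 0.010 over 53 pairs further apart. At p12 the same means were 0.242, 0.104, -0.013 and 0.018 over 9, 24, 18 and 20 pairs. The fall with distance was less plain at e14.5 (0.074, 0.022, 0.033 and -0.031 over 17, 44, 33 and 68 pairs) and not seen at p0 (0.054, -0.039, 0.150 and 0.021 over 8, 18, 14 and 26 pairs). After thinning to 7000 UMIs fewer pairs were left, and the mean within a group was 0.088 in the adult (5 pairs), 0.239 at p12 (2 pairs), 0.272 at p0 (2 pairs on 1 plate) and 0.034 at e14.5 (7 pairs), so that the order of the ages was not kept.

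The pair Hoxa10 and Hoxc10 met in 49 adult neurons where independent occurrence within each plate would give 30.8 (r = 0.31), in 18 against 6.06 at p12 (r = 0.54) and in 13 against 5.70 at e14.5 (r = 0.29). By r it ranked 9 of 134 pairs in the adult, 1 of 62 at p12 and 1 of 91 at e14.5, among pairs of genes that were each found in at least 10 neurons of that age. At p0 it met in 26 neurons against 25.6 (r = 0.07), rank 23 of 45. Hoxa9 and Hoxc9 met in 69 adult neurons against 51.1 (r = 0.33) and 18 p12 neurons against 9.68 (r = 0.38), but at e14.5 in 14 against 15.8 (r = -0.05). Within the Hoxa complex, Hoxa9 and Hoxa10 met in 55 adult neurons against 38.1 and in 16 p12 neurons against 7.19.

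Pairs far apart in number met less often than independence would give in some cases. Hoxa7 and Hoxc10 met in 19 p12 neurons against 24.2 (r = -0.33) and in 11 e14.5 neurons against 14.7 (r = -0.14), but in 66 adult neurons against 61.9 (r = 0.05). At e14.5 Hoxc4, a cervical-level gene, and Hoxa10 met in 0 neurons against 4.58. Hoxb6 and Hoxc10 met in 0 against 2.77 at e14.5 and in 8 against 12.7 in the adult, the lowest of 134 adult pairs (r = -0.18). Hoxc6 and Hoxa10 met in 7 p0 neurons against 13, the lowest of 45 pairs there (r = -0.53). These counts are small, and none was tested.

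The partners of Hox proteins were measured as well. The TALE homeodomain proteins of the Pbx, Meis and Prep families bind DNA together with Hox proteins, and 8 of 9 such genes passed the filter. Meis3 (log2 0.66, edgeR adjusted p = 0.0364) and Pbx4 (1.14, 0.0372) were higher at p12 than in the adult, and Meis2 (0.85, 0.0242) was higher at p0 than at p12. Of the 8, 2 were called between p12 and adult, 1 between p0 and p12 and 1 between e14.5 and p0, where 14.1%, 18.1% and 27.8% of all genes were called. DESeq2 called 1, 0 and 1 of 9.

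Polycomb proteins hold Hox genes silent and Trithorax proteins keep them active. Of 16 Polycomb genes tested 5 were called between p12 and adult, with Phc1 (log2 2.96) and Rbbp7 (0.73) higher at p12 and Cbx7 (-1.42), Phc3 (-0.92) and Suz12 (-1.33) lower. Between p0 and p12, 4 were called, with Rbbp4 (1.18) higher at p0 and Cbx6 (-1.60), Cbx7 (-1.95) and Cbx8 (-1.74) lower. Between e14.5 and p0, 5 were called, with Rnf2 (2.24) and Jarid2 (1.52) higher at e14.5 and, among others, Cbx6 (-1.17) and Rbbp7 (-1.09) lower. Members moved in both directions at each step, and DESeq2 called 3, 1 and 4 of 19 at the 3 steps, where edgeR called 14.1%, 18.1% and 27.8% of all genes. Of 10 Trithorax genes, 3 were called between p12 and adult (Wdr5 0.96, Kdm6b -1.25 and Kmt2a -0.73), 0 between p0 and p12 and 3 between e14.5 and p0 (Kdm6b 3.25, Kmt2b 1.41 and Psip1 -0.85), with 2 of 10 between p0 and p12 at an unadjusted edgeR p under 0.05. DESeq2 called 0, 0 and 1 of the 10 at these steps.

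The 3 caudal genes, regulators of Hox genes in the embryo, summed to 0 to 1.25 CPM per plate. Of 4 genes that the study used as regional markers of proprioceptors, Cdh13 was higher at p12 than in the adult (log2 2.15, edgeR adjusted p = 0.00297), higher again at p0 (1.63, 0.0142) and higher in adult cluster 4 (4.50, 0.00206). Crtac1 was lower in cluster 1 (-3.84), higher in cluster 4 (2.28) and lower at e14.5 than at p0 (-2.14, 0.00263). Vstm2b was also lower at e14.5 than at p0 (-2.88, 0.000275) and higher on adult replicates 1 and 2 than on 3 to 5 (1.63, 0.00596). None of the 4 was called by the presence of Hoxc10, with mean differences of -0.20 for Cdh13, -0.15 for Crtac1, -0.04 for Sema5a and 0.68 for Vstm2b (edgeR adjusted p = 0.889 to 1), with 0 of 4 at an unadjusted p under 0.05 and 0 called by DESeq2. In the adult alone 3 of the 4 were at an unadjusted p under 0.05 (Cdh13 -0.90, Crtac1 -0.86 and Vstm2b 0.75), with edgeR adjusted p of 0.296 or more. For the mean of ages, of the TALE, Polycomb and Trithorax lists 0 genes were called by edgeR or DESeq2, with 0 of 8, 3 of 16 and 1 of 9 at an unadjusted p under 0.05.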

How the data were processed

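Single tdTomato-positive DRG neurons were measured on 13 plates of 96 wells. The authors sequenced them with Plate-seq, aligned reads with STAR to mm10 (GRCm38) and deposited raw UMI counts per gene and well, together with a table of the wells that passed their filter (at least 2000 genes and low levels of glial genes) and their clusters. Whether counting used strand was not given in the sources used here, so reads of a Hox gene and its antisense RNA cannot be told apart. Overlapping annotations (Hoxa3 with Hoxa4 to Hoxa6, Hoxb3 with Hoxb4, Hoxd3 with Hoxd4, Hoxd10 with Hoxd11) make those counts uncertain.

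Plates were the replicates, numbered in accession order. Since nothing says that the plates came from separate animals, p-values measure only the spread between plates, which may be technical. The 5 adult plates came from 3 experiments, and which plates shared one was not given in the sources used here, so they are not all independent and p-values that rest on them may be too small. UMIs were summed per plate, per plate and adult cluster (at least 2 neurons), or per plate and presence of Hoxc10, and compared with the quasi-likelihood test of edgeR 4.0.16 (R 4.3.3) after TMM scaling and filterByExpr, at a Benjamini-Hochberg adjusted p under 0.05 over all genes. The Hoxc10 comparison had the plate as a block, which pairs the sums of 1 plate by design. CPM are UMIs scaled to the same total in each neuron, averaged over neurons, except in the Hoxc10 comparison, where they are of the summed neurons. Per-plate means of Hox genes per neuron (thinned to 7000 UMIs) and of the Hox share were compared with exact permutation tests in scipy 1.17.1. Intervals of shares are exact binomial (Clopper-Pearson), limits for a count of 0 are 3 counts, and both cover counting error only. Fits were tested on simulated data with known changes. Alternatives were DESeq2 1.42.0 and its size factors, no filter, thinning, each plate left out, other blocks and splits, and, chosen after seeing the data, neurons of at least 20000 UMIs, plate with cluster as terms and either pair of p12 plates alone. Homeobox sequences were read from the GRCm38 transcripts of GENCODE.

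The members and gene lists were chosen with earlier results of these data known. Hox genes were named where called or found in at least 20% of adult neurons, listed genes where called, and other genes as the 5 called genes of largest rise and of largest fall in each Hoxc10 comparison, leaving out predicted genes. Some items are not reported here. Co-detection pairs and less common Hox genes were named after their values were seen.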

Additional observations from a re-analysis of the deposited data

Results flagged for a closer look

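Of 32 groups of 4 or 5 plates tested for a plate far from the others, 3 had one, where chance gives about 1 in 20. Hoxc9 stood at 11.5 CPM on adult replicate 1 against 20.8 to 23.7 CPM on the other 4 adult plates. Adult replicate 5, the plate with the fewest adult neurons, had 2.00 Hox genes per neuron at 7000 UMIs against 1.33 to 1.51 on the others. Hoxa5 stood at 4.12 CPM on p12 replicate 1 against 1.64 to 1.98 CPM.

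For 6 named genes the difference between neurons with and without Hoxc10 varied between ages by a test of that variation over all ages (edgeR adjusted p). These were Spp1 (5.22e-05), Crip2 (0.00163), Cartpt (0.00335), Calb2 (0.0480), Ntm (0.0480) and S100a13 (0.0480). None of them is a Hox gene.

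RNAs from the Hox complexes that code for no Hox protein were outside the comparisons, and 1 of them was among the most widely found. Hoxd3os1, an RNA annotated opposite Hoxd3, had a UMI in 280 of 586 neurons (47.8%).

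Of the wells with at least 2000 genes that the study did not keep, 536 of 551 (97.3%) held a Hox UMI. On the 11 plates with at least 29 such wells, Hox messages summed to 186 to 293 CPM in them and to 173 to 336 CPM in the kept neurons, while Apoe stood at 1913 to 9539 CPM against 110 to 651 CPM.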

How the results depend on the processing

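Calls of single Hox genes depended on the setting more than their direction did: of 293 log2 differences of called genes under an alternative, 208 kept direction and call, 85 kept direction and lost the call, and 0 changed direction. The number of Hox genes called between p12 and adult (3) became 1 with DESeq2, 0 after thinning to 7000 UMIs, 0 with p12 replicates 1 and 2 alone and 6 with replicates 3 and 4 alone. Between p0 and p12 (5) it became 2 with DESeq2 and 2 after thinning, and between e14.5 and p0 (1) it became 0 with DESeq2, 3 without a filter on low counts, 0 without e14.5 clusters 3 and 4, and 2 and 4 with those pairs of p12 plates alone. Fewer Hox genes passed the filter after thinning (5). Among adult clusters (2) it became 4 without a filter, 1 in replicates 1 and 2 alone and 1 in replicates 3 to 5 alone, and between the sets of adult plates (1) it became 0 with DESeq2. For the Hoxc10 comparison over the mean of ages (1) it became 4 without a filter. In the adult alone (2) it became 0 with DESeq2 and, with plate and cluster as terms, where 1 Hox gene was tested, 0. At p12 alone (2) it became 1 with p12 replicates 1 and 2 alone and 0 with replicates 3 and 4 alone. No Hox gene passed the filter for that comparison after thinning. The share of all genes called under each alternative is not given here, so the counts of this section cannot be set against it.

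With the plate as a replicate block in the adult cluster fit the count stayed at 2. Without the replicate block the Hoxc10 comparison called 0 Hox genes in the adult and 1 at p12, and splitting by any gene of groups 10 to 13 called 1 at p12. No paired analysis was possible between ages because the labels give plates of different ages no shared number.

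With each plate left out in turn, the counts ran from 1 to 2 (p12 minus adult), 2 to 5 (p0 minus p12), 0 to 1 (e14.5 minus p0), 1 to 2 (clusters), 0 to 1 (plate sets), and 1 to 2, 0 to 2 and 0 to 2 (Hoxc10 comparison over the mean of ages, adult and p12). Differences in Hox genes per neuron ran from -0.416 to -0.104, 0.315 to 0.626 and 0.451 to 0.623, and in the Hox share from -55.1 to -15.3, 52.7 to 91.6 and 100 to 140 CPM. The difference in Hox genes per neuron between e14.5 and p0 reversed without thinning, at -3.38 against 0.537 with thinning (e14.5 minus p0). The e14.5 neurons were also shallower, and the part of depth in the unthinned value was not tested. The mean correlation within a paralog group after thinning was 0.088 in the adult, 0.272 at p0 and 0.034 at e14.5. With at least 2 UMIs asked for, group 10 was the highest in 35.7% of adult, 11.1% of p12, 63.0% of p0 and 14.1% of e14.5 neurons, and after thinning in 20.5%, 12.5%, 33.7% and 21.9%. With 2 plates each at p0 and e14.5, permutation tests on plates could not pass there.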

Other observations

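Other RNAs of the Hox complexes differed from one another in where they were found. Hoxd3os1 had a UMI in 117 of 208 adult, 102 of 154 p12, 42 of 55 p0 and 19 of 169 e14.5 neurons, a range of 11.2% to 76.4%. Hotairm1 was found in 30, 12, 10 and 23 neurons of the same ages, Hoxb3os in 30, 15, 2 and 0, Hoxb5os in 20, 17, 4 and 3, Hoxaas3 in 13, 6, 7 and 9, and Hoxaas2 in 4, 1, 1 and 3. Hotair, Hottip and Hoxa11os were at 0 in all 586 neurons. These shares were not thinned or tested between ages, and e14.5 neurons were the shallowest.

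For the clusters at the younger ages, neurons with a UMI are given summed over the plates of that age. They were not thinned or tested, and the clusters differ in depth. At e14.5, Hoxc10 was found in 8 of 41, 20 of 88, 2 of 34 and 1 of 6 neurons of clusters 1 to 4, and Hoxb5 in 2 of 41, 10 of 88, 7 of 34 and 1 of 6. Hoxa7 was found in 15 of the 41 neurons of e14.5 cluster 1 and was at 0 in the 6 neurons of cluster 4, too few and too shallow to set a limit on its message. At p12, Hoxc8 was found in 11 of 63, 8 of 8, 10 of 17, 24 of 58 and 4 of 8 neurons of clusters 1 to 5, whose median depths were 16185, 74067, 46967, 29649 and 49217 UMIs. At p0, Hoxa10 was found in 23 of 35, 11 of 12 and 4 of 8 neurons of clusters 1 to 3.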
